A study of Mus musculus with 24 samples.

Results

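Spp1, Gpnmb, Trem2, Tyrobp, Cd63, Cd9 and Lgals3 are genes that single-cell studies of fibrotic and fatty tissue have linked to macrophages of scars and of lipid-rich lesions. They were taken by name from the deposited gene counts of sorted mouse lung macrophages. All 7 were found among 43430 gene IDs, and all 7 passed the filter on low counts. The cells were sorted from C57BL/6J mice, and 24 libraries fall into 6 groups of 4. Siglec F-high alveolar macrophages came from naive young mice (8 to 12 weeks), naive old mice (over 18 months), and young and old mice given asbestos. Siglec F-low alveolar macrophages came from young and old mice given asbestos, and no naive Siglec F-low group was analysed. The series text places the asbestos groups 28 days after asbestos. That text describes macrophages of resident and of monocyte origin. Here the sorts are called by Siglec F alone, as on the samples. The labels do not say that each library came from a separate animal or pool, so the p-values measure the spread between these libraries.

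Spp1 encodes osteopontin, a secreted matrix protein that binds integrins and CD44. Gpnmb encodes a glycoprotein of the endolysosomal and surface membrane that belongs to the targets of the MiT/TFE transcription factors, which regulate lysosome genes. Trem2 encodes a surface receptor for lipids and lipoproteins, and Tyrobp encodes the adaptor DAP12, through which TREM2 signals to the kinase SYK. Cd63 and Cd9 encode tetraspanins, small membrane proteins that organise other proteins in membranes. CD63 is most abundant in late endosomes and lysosomes, whereas CD9 is mainly at the cell surface. Lgals3 encodes galectin-3, a lectin that binds beta-galactosides and is a classical marker of activated macrophages. Alveolar macrophages take up surfactant and dust in the air spaces, and asbestos fibres are a standard way to cause lung fibrosis in mice.

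The genes lie apart from each other in the mouse genome, apart from Gpnmb and Cd9, which share a chromosome. On GRCm38 (GENCODE M21), Spp1 (ENSMUSG00000029304) spans chromosome 5, 104435118 to 104441050, on the plus strand. Gpnmb (ENSMUSG00000029816) spans chromosome 6, 49036546 to 49070929, and Trem2 (ENSMUSG00000023992) spans chromosome 17, 48346401 to 48354147, both on the plus strand. Tyrobp (ENSMUSG00000030579) is at chromosome 7, 30413760 to 30417585, and Cd63 (ENSMUSG00000025351) at chromosome 10, 128900989 to 128912822. Cd9 (ENSMUSG00000030342) is on the minus strand of chromosome 6, 125460266 to 125494791, and Lgals3 (ENSMUSG00000050335) on the plus strand of chromosome 14, 47367751 to 47386160. Cd9 overlaps the opposite-strand genes Gm28809 and Gm26728, and the library kit named in the labels does not mark strand, so reads from these overlaps cannot be told apart. Spp1 shares 1252 bases with Gm42793 on the same strand, and how the authors' counting split reads there is not given in the sources used here, so the Spp1 counts carry that uncertainty.

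The 250 bases before the RefSeq start of Spp1, Gpnmb and Trem2 are shown 5′ to 3′ (RefSeq, GRCm38.p6, all plus strand), with matches to 6 short motifs in capitals.
Spp1, chr5:104434861-104435110: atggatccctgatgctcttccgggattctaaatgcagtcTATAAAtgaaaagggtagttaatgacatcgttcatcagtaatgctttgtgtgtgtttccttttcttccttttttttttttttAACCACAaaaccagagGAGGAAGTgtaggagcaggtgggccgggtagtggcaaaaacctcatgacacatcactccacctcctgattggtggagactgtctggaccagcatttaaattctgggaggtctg
Gpnmb, chr6:49036268-49036517: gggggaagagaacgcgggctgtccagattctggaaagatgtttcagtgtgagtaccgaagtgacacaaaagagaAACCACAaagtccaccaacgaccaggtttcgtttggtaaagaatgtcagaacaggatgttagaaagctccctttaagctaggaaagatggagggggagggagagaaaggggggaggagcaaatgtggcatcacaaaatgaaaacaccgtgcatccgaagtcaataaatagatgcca
Trem2, chr17:48346151-48346400: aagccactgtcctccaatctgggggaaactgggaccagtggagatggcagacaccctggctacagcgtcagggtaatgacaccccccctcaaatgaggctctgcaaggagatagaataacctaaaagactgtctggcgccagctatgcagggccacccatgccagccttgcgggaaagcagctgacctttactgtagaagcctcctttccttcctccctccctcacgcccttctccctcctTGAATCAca
The motifs were CACGTG (E-box), TGANTCA (AP-1), GAGGAAGT (PU.1 core), TTGCNNAA (C/EBP core) and TGTGGTT (RUNX core) on both strands, and TATAAA on the plus strand. In the Spp1 window TATAAA lay 211 to 206 bases before the start, the RUNX core on the minus strand 129 to 123 bases and the PU.1 core 113 to 106 bases before it. Gpnmb held the RUNX core on the minus strand, 176 to 170 bases before its start. Trem2 held the AP-1 motif in the form TGAATCA, 9 to 3 bases before its start. Among 32851 RefSeq windows of this length 2.44% held the PU.1 core, 4.4% the RUNX core, 6.75% the AP-1 motif and 7.59% TATAAA. The RUNX core was the only motif found in more than 1 of the 3 windows shown. RefSeq windows were found for 6 of the 7 genes, and none of the motifs was found in those of Cd63, Cd9 and Lgals3. RefSeq holds a second Spp1 window, chr5:104435942-104436191, which is not printed and in which the C/EBP core TTGCAGAA lay 156 to 149 bases before its start. The C/EBP core stood in 9.56% of all windows. A match describes these letters and says nothing about binding.

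Of the 24 libraries, 22 held 13423080 to 18124526 counts, and their correlation with the rest of their group was 0.971 to 0.993. Replicate 3 of old asbestos Siglec F-high held 3894699 counts, 35.6% of them on Gm42418, a ribosomal RNA-related locus that took 0.136 to 0.357% in the 22 libraries. Replicate 3 of young asbestos Siglec F-high held 11889517 counts on 12528 genes, where the 22 libraries had counts on 17069 to 18820 genes. The 7 genes were therefore tested with all 24 libraries and with the 22 that leave these outlying libraries out, and values of other genes say which set they come from. Levels are in CPM, counts relative to the library total scaled with TMM factors, and differences are log2 fold changes ± standard error. A gene is called where its edgeR adjusted p is under 0.05 over all genes tested. Siglecf, the gene of the sorting marker, had 489 to 614 CPM in young naive, 489 to 512 in old naive, 436 to 476 in young asbestos and 454 to 472 in old asbestos Siglec F-high libraries, against 236 to 294 and 148 to 221 in young and old Siglec F-low libraries, without the outlying libraries.

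Spp1, Trem2 and Cd63 stood at their lowest level in young naive Siglec F-high cells, higher in old naive and in young asbestos Siglec F-high cells, higher again in old asbestos Siglec F-high cells, and highest in the Siglec F-low sorts. With 22 libraries the highest group mean was 9.92 times the lowest for Spp1, 9.03 times for Cd63, 5.61 times for Trem2 and 4.53 times for Gpnmb. It was 1.69 times for Lgals3, 1.24 times for Tyrobp and 1.17 times for Cd9. In the order of means with 22 libraries, the neighbours whose libraries overlapped for Spp1, Trem2 and Cd63 were old naive with young asbestos Siglec F-high, and the young with the old Siglec F-low sort. All other neighbours in that order were separate for these 3 genes. The order was taken from the same values, and the share of all tested genes whose groups separate in this way was not computed. Nor was such a share computed for the other separations of groups given below.

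**Figure D1:**
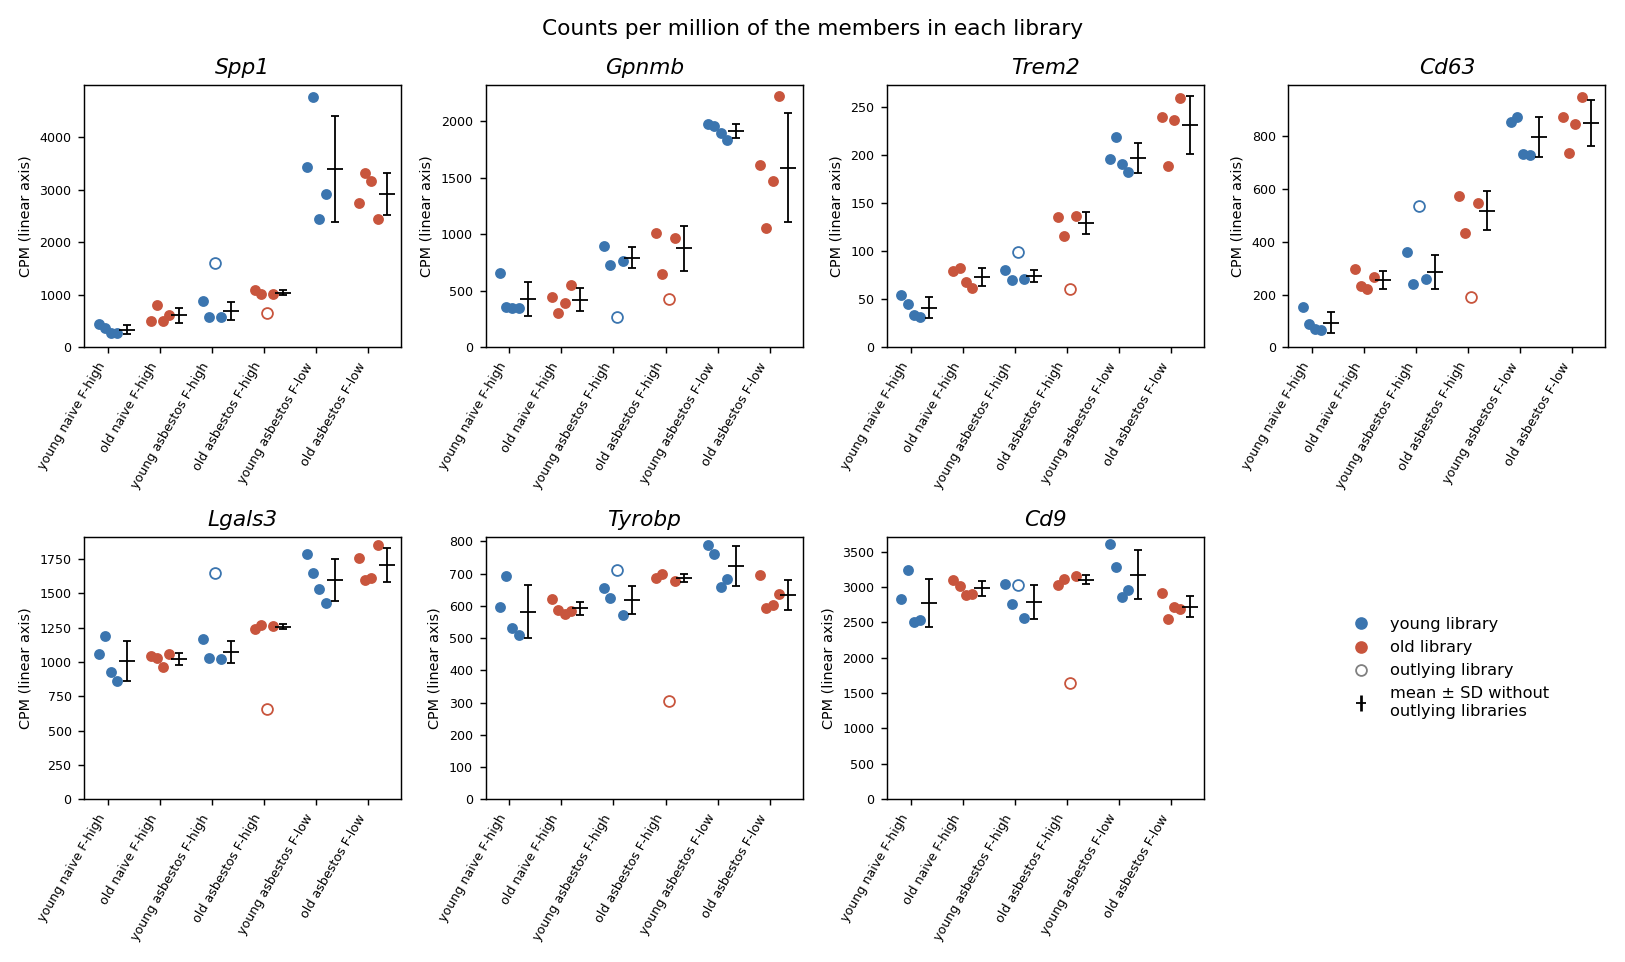
CPM of the 7 genes on linear axes from 0, 1 panel a gene, with 1 point a library and the 6 groups along the x axis. Bars are mean ± SD without the outlying libraries, which are open circles. The 8 Siglec F-low libraries are above all Siglec F-high libraries for Spp1, Gpnmb, Trem2 and Cd63, whereas Tyrobp and Cd9 are nearly level. The share of all tested genes that separate in this way was not computed.

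Against asbestos Siglec F-high cells of the same age, Siglec F-low cells had more Spp1, Gpnmb, Trem2, Cd63 and Lgals3, and no member was called lower. In young mice edgeR called 4 of the 7 members higher with 24 libraries, where 4.99% of all tested genes were called in either direction, and 5 with 22 libraries, where 12.0% were. Fitted on the 8 libraries of these groups alone, edgeR called Trem2 alone. In old mice it called 3 members with 24 libraries (background 4.30%) and 5 with 22 libraries (11.6%). The median log2 fold change of the 7 was 1.19 in young and 0.96 in old mice with 24 libraries, and 1.27 and 0.71 with 22, whereas the median of all tested genes was -0.01 to 0.00. The sort itself used Siglec F and not these genes. In sorted bulk samples, fewer cells of a type and less RNA per cell cannot be told apart.

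Asbestos went with more Spp1, Trem2 and Cd63 in Siglec F-high cells of young mice, where edgeR called 3 of 7 members higher with 24 libraries (background 1.90%) and 4 with 22 libraries (5.06%), Gpnmb being the addition. Fitted on the 8 libraries of these groups alone, edgeR called none of the 7 and 10 of 12469 genes. In old mice edgeR called none of the 7 with 24 libraries (background 0.780%), although 4 had an unadjusted p under 0.05, and DESeq2 called 0 and limma voom 4. With 22 libraries edgeR called the same 4 genes higher there as in young mice, Spp1, Gpnmb, Trem2 and Cd63 (background 4.12%). The median log2 fold change of the 7 was 0.64 in young and 0.64 in old mice with 24 libraries, and 0.85 and 0.77 with 22, beside -0.01 to 0.01 over all tested genes. The asbestos comparisons in young and old mice share no library.

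Age went with more Trem2 and Cd63 in naive Siglec F-high cells, where edgeR called these 2 of 7 members higher in old mice with 24 libraries (background 2.03%) and Spp1 besides with 22 (8.03%). After asbestos, edgeR called none of the 7 in Siglec F-high cells with 24 libraries (background 4.76%). There 1 member had an unadjusted p under 0.05, DESeq2 called 0 and limma voom 3. With 22 libraries edgeR called Trem2 and Cd63 (background 7.32%). In Siglec F-low cells no member was called with 24 libraries (background 1.29%, 0 members at an unadjusted p under 0.05, 0 by DESeq2 and 0 by limma voom) or with 22 (background 7.21%, 2 members at an unadjusted p under 0.05). With 22 libraries the median of the 7 was 0.10 in naive Siglec F-high, 0.24 in asbestos Siglec F-high and -0.19 in Siglec F-low cells, beside 0.00 to 0.01 over all tested genes. The asbestos groups of the age and sort comparisons are partly the same libraries.

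The difference between these effects was tested as an interaction. For age with asbestos in Siglec F-high cells, edgeR called no member with 24 libraries (0% of all tested genes, 1 member at an unadjusted p under 0.05) or with 22 (0.0147%, 0 members). For age with the Siglec F sort, edgeR called no member with 24 libraries (0% of tested genes, 0 members at an unadjusted p under 0.05) or with 22 (0.0147%, 5 members), and DESeq2 and limma voom called none of the 7 in either interaction. With 22 libraries all 7 estimates for age with sort were below 0, from -0.83 ± 0.29 for Spp1 and -0.76 ± 0.28 for Cd63 to -0.14 ± 0.13 for Lgals3. The age difference in Siglec F-high cells was not shown to differ from that in Siglec F-low cells.

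**Figure D2:**
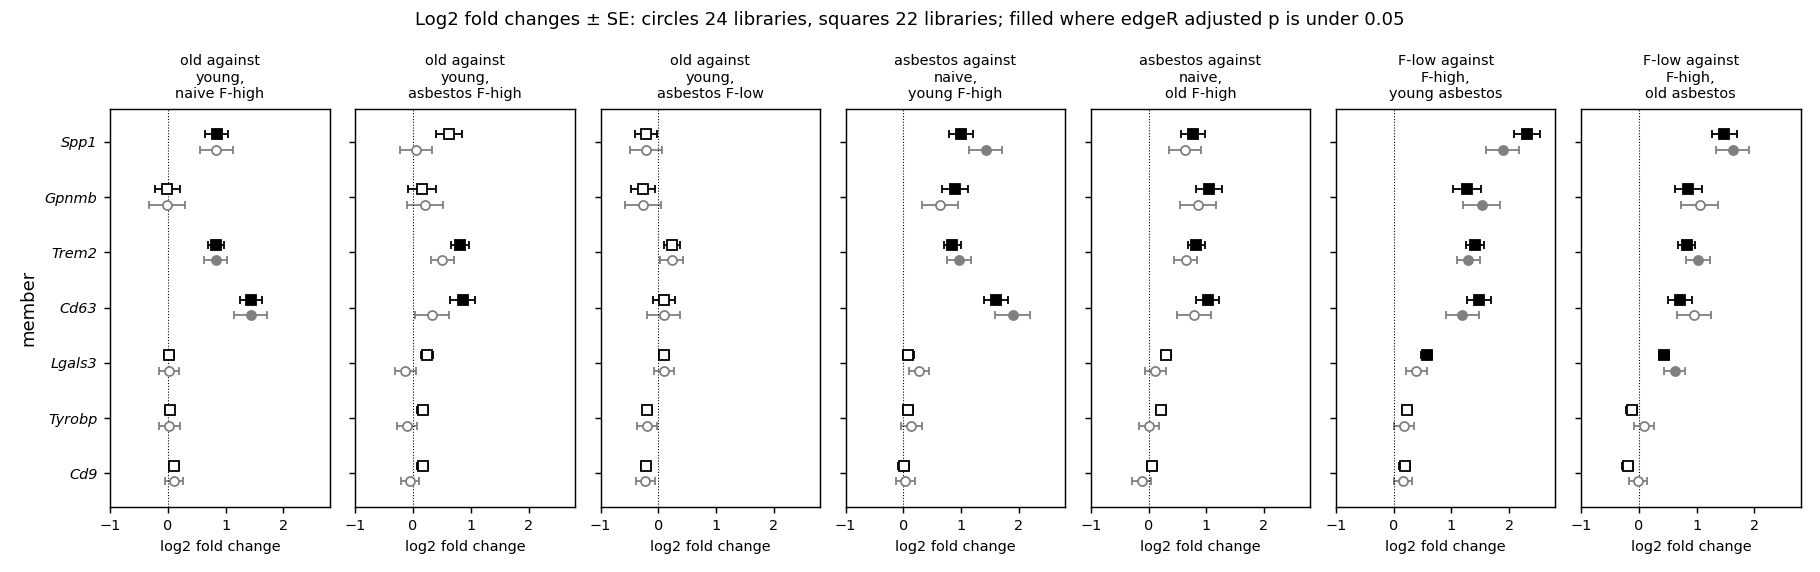
Log2 fold change (x axis) of each member (y axis) in the 7 comparisons of 2 groups, 1 panel a comparison, with bars of 1 standard error. Circles are fits with 24 and squares with 22 libraries, filled where the edgeR adjusted p is under 0.05. The filled points all lie to the right of 0, and those of Spp1 in young Siglec F-low cells reach 2.31.

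Spp1, the secreted ligand of the group, had 445, 376, 269 and 277 CPM in replicates 1 to 4 of young naive and 507, 812, 506 and 619.7 CPM in those of old naive Siglec F-high cells. These groups did not overlap, and the log2 fold change with age was 0.84 ± 0.28 (edgeR adjusted p 0.185) with 24 libraries and 0.84 ± 0.19 (edgeR adjusted p 0.00722) with 22. After asbestos, young Siglec F-high libraries had 882, 584, 1609 and 589 CPM, and replicate 3, the outlying library, was the highest of them. The old ones had 1096, 1016, 665 and 1017 CPM, and there the outlying replicate 3 was the lowest. Spp1 rose with asbestos in young mice, by 1.42 ± 0.28 (edgeR adjusted p 0.00822) with 24 libraries and 1.0 ± 0.21 (edgeR adjusted p 0.00526) with 22. In old mice the values were 0.64 ± 0.28 (edgeR adjusted p 0.504) and 0.77 ± 0.21 (edgeR adjusted p 0.0337), so the change was called with 22 libraries alone. With 24 libraries the young-mouse call was lost without young naive replicate 3 or 4 (edgeR adjusted p 0.0543 and 0.0516). With 22 it was lost without young asbestos Siglec F-high replicate 1 (0.0810). The old-mouse call was lost without old naive replicate 1, 3 or 4 or without any 1 of the 3 remaining old asbestos Siglec F-high libraries, with edgeR adjusted p from 0.0577 to 0.124.

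In Siglec F-low cells Spp1 had 3433, 4763, 2442 and 2916 CPM in young and 2751, 3324, 3166 and 2448 CPM in old mice. Every Siglec F-low library was above every Siglec F-high library, and the ages overlapped within the sort. The rise over Siglec F-high was 1.89 ± 0.29 (edgeR adjusted p 2.56e-04) in young mice with 24 libraries, and 2.31 ± 0.22 (edgeR adjusted p 3.34e-07) with 22, which is 4.95-fold. In old mice it was 1.62 ± 0.29 (edgeR adjusted p 0.00121) and 1.48 ± 0.22 (edgeR adjusted p 6.21e-05). Spp1 also had a wide spread among the Siglec F-low libraries of young mice, at 3389 ± 1002 CPM (SD, n = 4). The age difference within Siglec F-low was -0.21 ± 0.19 (edgeR adjusted p 0.609) with 22 libraries. Between old and young asbestos Siglec F-high it was 0.05 ± 0.28 (edgeR adjusted p 0.930) with 24 libraries and 0.62 ± 0.22 (edgeR adjusted p 0.101) with 22, where the libraries did not overlap.

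Most receptors for osteopontin were not called between the sorts. Of 8 tested genes from a list of 11 genes of integrin subunits and CD44, edgeR with 24 libraries called Itgb3 alone in the sorts, the integrin beta 3 subunit that pairs with alpha V. It was higher in Siglec F-low cells by 1.69 ± 0.29 (edgeR adjusted p 7.05e-04) in young and 2.38 ± 0.31 (edgeR adjusted p 4.23e-05) in old mice. With 22 libraries edgeR called 2 of 9 higher and 1 lower in young mice, and Itgb3 alone in old mice. The others in young mice were Itgb5, the beta 5 subunit, higher by 0.18 ± 0.06 (edgeR adjusted p 0.0403), and Itga4, the alpha 4 subunit, lower (-0.46 ± 0.13, edgeR adjusted p 0.0277). In the sorts 4.99% of all genes tested were called in young and 4.30% in old mice with 24 libraries, and 12.0% and 11.6% with 22. With 22 libraries Itgb3 was also higher in old than in young Siglec F-low cells (0.97 ± 0.23, edgeR adjusted p 0.0110), where Spp1 itself was not called. Its level went from 1.99 ± 0.283 to 7.37 ± 1.41 CPM in young and from 2.62 ± 0.716 to 14.4 ± 5.43 CPM in old mice (SD, n = 3 Siglec F-high and 4 Siglec F-low libraries). Cd44, another receptor, was called in neither sort, with -0.06 ± 0.08 (edgeR adjusted p 0.656) in young and -0.18 ± 0.08 (edgeR adjusted p 0.138) in old mice with 22 libraries, and -0.30 ± 0.17 (edgeR adjusted p 0.305) and -0.35 ± 0.17 (edgeR adjusted p 0.314) with 24.

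Gpnmb, the lysosome-linked glycoprotein, overlapped between the ages in every sort and treatment. Young naive Siglec F-high libraries had 654, 355, 348 and 349 CPM, with replicate 1 standing above 3 close values, and old ones had 444, 305, 392 and 551 CPM. The groups overlapped, and the log2 difference was -0.01 ± 0.31 (edgeR adjusted p 1.0) with 24 libraries. After asbestos, young Siglec F-high libraries had 893, 724, 272 and 765 CPM and old ones 1009, 644, 428 and 969 CPM. Both outlying replicates 3 were the lowest of their groups, and the remaining 3 libraries of each were above all naive ones of the same age. With 22 libraries the asbestos difference was 0.89 ± 0.23 (edgeR adjusted p 0.0223) in young and 1.05 ± 0.23 (edgeR adjusted p 0.00921) in old mice, both called. With 24 libraries neither was, at 0.64 ± 0.31 (edgeR adjusted p 0.264) and 0.85 ± 0.32 (edgeR adjusted p 0.343). The young-mouse call with 22 libraries was lost without young naive replicate 2, 3 or 4 or young asbestos replicate 1 or 4 (edgeR adjusted p 0.0535 to 0.144). The old-mouse call was lost without old asbestos replicate 1 or 4 (0.0611 and 0.0538).

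In Siglec F-low cells Gpnmb had 1969, 1956, 1897 and 1833 CPM in young mice, a narrow range, and 1606, 1052, 1471 and 2219 CPM in old mice, a wide one. Against Siglec F-high it rose in young mice by 1.53 ± 0.32 (edgeR adjusted p 0.00488) with 24 libraries and 1.27 ± 0.24 (edgeR adjusted p 7.86e-04) with 22. In old mice it was 1.05 ± 0.32 (edgeR adjusted p 0.0647) with 24 libraries and 0.86 ± 0.23 (edgeR adjusted p 0.0171) with 22. With 22 libraries the old-mouse call was lost without old Siglec F-high replicate 2 (log2 0.68, edgeR adjusted p 0.119) or old Siglec F-low replicate 4 (0.65, edgeR adjusted p 0.0839).

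Of 9 tested Gpnmb relatives, partners and MiT/TFE factors, edgeR with 24 libraries called 1 higher and 0 lower in Siglec F-low cells at each age. With 22 it called 2 higher and 0 lower at each age. Over all genes tested 4.99% and 4.30% were called in the young and old sorts with 24 libraries, and 12.0% and 11.6% with 22. With asbestos in young mice it called 1 higher with 24 (background 1.90%) and 3 with 22 (5.06%). Sdc4, the syndecan-4 heparan sulfate proteoglycan that GPNMB binds, rose in Siglec F-low cells of old mice by 2.53 ± 0.51 (edgeR adjusted p 0.00451) with 24 libraries. In young mice Sdc4 was called with 22 libraries, at 2.16 ± 0.35 (edgeR adjusted p 1.65e-04), and not with 24, at 1.34 ± 0.45 (edgeR adjusted p 0.0916). Fnip2, a folliculin partner in nutrient signalling at the lysosome, was higher in young Siglec F-low cells by 0.94 ± 0.22 (edgeR adjusted p 0.0119) with 24 libraries. Of the MiT/TFE factors, Tfec was higher with asbestos in young mice by 0.82 ± 0.19 (edgeR adjusted p 0.0242) with 24 libraries. Mitf was called there with 22, at 0.86 ± 0.12 (edgeR adjusted p 1.14e-04), and with 24 had 0.57 ± 0.26 (edgeR adjusted p 0.234). In old against young asbestos Siglec F-high cells the factor that was called depended on the libraries. With 22 Mitf was lower (-0.50 ± 0.13, edgeR adjusted p 0.0184) and Tfec had -0.37 ± 0.13 (edgeR adjusted p 0.0942). With 24 Tfec was lower (-0.78 ± 0.19, edgeR adjusted p 0.0219) and Mitf had -0.20 ± 0.26 (edgeR adjusted p 0.655).

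Trem2, the lipid receptor, had 55.0, 44.9, 33.4 and 31.7 CPM in young naive and 79.4, 82.6, 68.2 and 62.2 CPM in old naive Siglec F-high libraries. The old libraries were all above the young ones, and Trem2 rose with age by 0.83 ± 0.20 (edgeR adjusted p 0.0286) with 24 libraries and 0.83 ± 0.14 (edgeR adjusted p 3.26e-04) with 22. With 24 libraries this call was lost without each of 6 of the 8 libraries of these groups in turn. The 6 were young naive replicates 2, 3 and 4 and old naive replicates 1, 2 and 3, and the highest edgeR adjusted p was 0.163. With 22 libraries it was kept without each library in turn.

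After asbestos, Trem2 had 81.1, 70.0, 99.0 and 71.7 CPM in young and 136, 116, 60.4 and 136 CPM in old Siglec F-high libraries. Without the outlying replicates 3, which were the highest young and the lowest old library, all old libraries were above all young ones. The age difference there was 0.50 ± 0.20 (edgeR adjusted p 0.121) with 24 libraries and 0.81 ± 0.16 (edgeR adjusted p 0.00192) with 22. Trem2 rose with asbestos in young mice by 0.96 ± 0.20 (edgeR adjusted p 0.0121) with 24 libraries and 0.85 ± 0.15 (edgeR adjusted p 0.00119) with 22. In old mice the values were 0.64 ± 0.20 (edgeR adjusted p 0.190) and 0.83 ± 0.14 (edgeR adjusted p 0.00128). With 24 libraries the young-mouse call was lost without young naive replicate 3 or 4 (edgeR adjusted p 0.0852 and 0.0830).

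In Siglec F-low libraries Trem2 had 196, 219, 191 and 182 CPM in young and 240.1, 189, 237 and 259.7 CPM in old mice. All were above every Siglec F-high library, and the ages overlapped. The rise over Siglec F-high was 1.29 ± 0.20 (edgeR adjusted p 3.23e-04) in young and 1.02 ± 0.20 (edgeR adjusted p 0.00373) in old mice with 24 libraries. With 22 libraries it was 1.41 ± 0.15 (edgeR adjusted p 9.25e-07) and 0.83 ± 0.15 (edgeR adjusted p 4.54e-04). With 22 libraries Trem2 was called higher in 6 of the 7 comparisons of 2 groups, and each of these 6 calls held without each further library in turn. The exception was old against young Siglec F-low, at 0.24 ± 0.13 (edgeR adjusted p 0.333).

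Tyrobp, the adaptor of TREM2, was called in none of the 7 comparisons of 2 groups with 24 or with 22 libraries. Its means were 582 ± 83.1 CPM in young naive and 593 ± 19.99 CPM in old naive Siglec F-high cells (SD, n = 4 each). They were 617 ± 43.7 and 687 ± 11.9 CPM after asbestos (n = 3 each, without the outlying libraries) and 723 ± 62.7 and 632 ± 46.3 CPM in young and old Siglec F-low cells (n = 4 each). Neighbours in the order of these means all overlapped. The log2 differences with 22 libraries ran from -0.19 ± 0.08 (edgeR adjusted p 0.195) for old against young Siglec F-low to 0.23 ± 0.09 (edgeR adjusted p 0.108) for young Siglec F-low against F-high, and the 95% interval of the latter was 0.05 to 0.40.

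Most genes of the signalling chain below Tyrobp were not called in the sorts. Of 25 tested signalling genes, edgeR with 24 libraries called 3 higher and 0 lower in young and 2 higher and 0 lower in old Siglec F-low against F-high cells. With 22 libraries it called 3 higher and 3 lower in young, and 2 higher and 7 lower in old mice. Over all genes tested 4.99% and 4.30% were called with 24 libraries, and 12.0% and 11.6% with 22. Blnk and Lat2, adaptors downstream of SYK, were higher by 2.35 ± 0.29 (edgeR adjusted p 2.13e-05) and 1.73 ± 0.31 (edgeR adjusted p 0.00103) in young mice, and by 2.25 ± 0.30 (edgeR adjusted p 5.83e-05) and 2.40 ± 0.33 (edgeR adjusted p 9.08e-05) in old mice, with 24 libraries. Btk and Plcg2, a kinase and a phospholipase of the same chain, were lower in old mice with 22 libraries, at -0.38 ± 0.06 (edgeR adjusted p 9.19e-05) and -0.33 ± 0.06 (edgeR adjusted p 6.54e-04). With 24 they were not called, at -0.24 ± 0.16 (edgeR adjusted p 0.523) and -0.34 ± 0.13 (edgeR adjusted p 0.175). Syk was called in neither sort, with 0.16 ± 0.14 (edgeR adjusted p 0.566) in young and -0.07 ± 0.14 (edgeR adjusted p 0.928) in old mice with 24 libraries, and the opposite sign at each age with 22, at -0.01 ± 0.08 (edgeR adjusted p 0.979) and 0.03 ± 0.08 (edgeR adjusted p 0.857). Hcst, which encodes the related adaptor DAP10 next to Tyrobp, was not called either. In young mice it had -0.83 ± 0.48 (edgeR adjusted p 0.327) with 24 libraries and 0.40 ± 0.27 (edgeR adjusted p 0.385) with 22.

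Among other receptors that signal through Tyrobp, the calls in old Siglec F-low cells were all lower and those in young ones went both ways. In old mice edgeR with 24 libraries called 0 of 10 tested receptors higher and 2 lower in Siglec F-low cells (background 4.30% of all genes tested). With 22 libraries it called 0 of 11 higher and 5 lower (11.6%). Trem1, the inflammatory neighbour of Trem2, was lower at -1.05 ± 0.21 (edgeR adjusted p 0.00483), and Pilrb2 at -0.97 ± 0.26 (edgeR adjusted p 0.0314). In young mice it called 1 higher and 2 lower with 24 libraries (background 4.99%), and 2 higher and 2 lower with 22 (12.0%). With 24, Cd300lb, a lipid-binding receptor, was higher by 1.07 ± 0.22 (edgeR adjusted p 0.00438) and Pilrb2 lower at -1.03 ± 0.25 (edgeR adjusted p 0.0149). Pilrb2 has a near-identical neighbour, Pilrb1, so its counts are uncertain. Clec5a, a C-type lectin receptor, was higher with asbestos in young mice, by 1.04 ± 0.27 (edgeR adjusted p 0.0458) with 24 libraries.

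Cd63, the lysosomal tetraspanin, had 152, 89.8, 68.5 and 66.4 CPM in young naive and 297, 231, 221 and 268 CPM in old naive Siglec F-high libraries. The old libraries were all above the young ones, and Cd63 rose with age by 1.43 ± 0.29 (edgeR adjusted p 0.00667) with 24 libraries, which is 2.70-fold, and by 1.44 ± 0.19 (edgeR adjusted p 2.35e-05) with 22. This was the largest age difference among the members in both fits. After asbestos, young Siglec F-high libraries had 360.4, 240.4, 537 and 260.1 CPM and old ones 574, 434, 193 and 545 CPM. The outlying replicate 3 was again the highest young and the lowest old library, and without these the ages did not overlap.

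With 22 libraries Cd63 was higher in old than in young asbestos Siglec F-high cells by 0.86 ± 0.22 (edgeR adjusted p 0.0157), and with 24 the value was 0.33 ± 0.29 (edgeR adjusted p 0.479). With 22 libraries this call was lost without young asbestos Siglec F-high replicate 2 or 4 (edgeR adjusted p 0.1002 and 0.0801) or old asbestos Siglec F-high replicate 1 or 4 (0.0732 and 0.0514). Cd63 rose with asbestos in young mice by 1.89 ± 0.30 (edgeR adjusted p 8.97e-04) with 24 libraries and 1.60 ± 0.20 (edgeR adjusted p 4.01e-05) with 22. In old mice it was 0.79 ± 0.29 (edgeR adjusted p 0.332) with 24 libraries and 1.03 ± 0.20 (edgeR adjusted p 0.00351) with 22.

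Siglec F-low libraries had 853, 871, 729.8 and 729 CPM of Cd63 in young and 872, 737, 844 and 948 CPM in old mice. They were above all Siglec F-high libraries and overlapped between the ages. Against Siglec F-high, Cd63 rose in young mice by 1.19 ± 0.29 (edgeR adjusted p 0.0161) with 24 libraries and 1.47 ± 0.21 (edgeR adjusted p 4.38e-05) with 22. In old mice it was 0.96 ± 0.29 (edgeR adjusted p 0.0668) and 0.71 ± 0.20 (edgeR adjusted p 0.0235). The old-mouse call with 22 libraries was lost without old Siglec F-high replicate 2 or 4 (edgeR adjusted p 0.132 and 0.0540) or old Siglec F-low replicate 4 (0.0711).

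Cd9, the surface tetraspanin, was abundant and nearly level. Its means were 2777 ± 342 CPM in young naive and 2978 ± 101 in old naive Siglec F-high cells, 2788 ± 240.1 and 3103 ± 62.9 in young and old asbestos Siglec F-high cells, and 3176 ± 341 and 2718 ± 149 in the Siglec F-low sorts. None of the 7 comparisons was called in either fit. The log2 differences with 22 libraries ran from -0.22 ± 0.08 (edgeR adjusted p 0.116) for old against young Siglec F-low to 0.19 ± 0.09 (edgeR adjusted p 0.194) for young Siglec F-low against F-high, and the 95% interval of the latter was 0.01 to 0.36.

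Of 19 other tetraspanins and partners tested, edgeR called 3 higher with 24 libraries and 7 higher with 22 in young Siglec F-low against F-high cells, and with 22 libraries 2 higher and 1 lower in old ones. In old mice with 24 libraries edgeR called 0, with 3 at an unadjusted p under 0.05, while DESeq2 called 2 higher and limma voom 5 higher and 1 lower. Over all genes tested edgeR called 4.99% and 4.30% in these sorts with 24 libraries, and 12.0% and 11.6% with 22. With age in naive cells it called 1 of the 19 higher with 24 libraries and 6 with 22, where 2.03% and 8.03% of all genes were called. Tspan4, a tetraspanin of migrasomes, was higher with age in naive cells (0.91 ± 0.23, edgeR adjusted p 0.0324) and in asbestos Siglec F-high cells (0.92 ± 0.23, edgeR adjusted p 0.0234), as well as in young Siglec F-low cells (1.34 ± 0.22, edgeR adjusted p 6.08e-04), with 24 libraries. Tspan3 was higher in young Siglec F-low cells by 2.00 ± 0.45 (edgeR adjusted p 0.00888) with 24 libraries. Cd37, a leukocyte tetraspanin, was higher in old naive cells by 0.50 ± 0.08 (edgeR adjusted p 2.00e-04) with 22 libraries, and with 24 was not called, at 0.50 ± 0.22 (edgeR adjusted p 0.484). Cd81, a close relative of Cd9, was called in neither sort. In young mice it had 0.45 ± 0.24 (edgeR adjusted p 0.294) with 24 libraries and 0.19 ± 0.12 (edgeR adjusted p 0.361) with 22.

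Lgals3, galectin-3, was called in the comparisons of the sorts alone. Its libraries had 1060.2, 1189, 927 and 864 CPM in young naive, 1043, 1027, 961 and 1062 in old naive, 1168, 1032, 1649 and 1024 in young asbestos and 1239.6, 1273, 662 and 1263 in old asbestos Siglec F-high cells. The outlying replicates 3 were again the highest young and the lowest old library of the asbestos groups. Siglec F-low libraries had 1786, 1647, 1530.2 and 1429 CPM in young and 1759, 1601, 1615 and 1855 CPM in old mice. Without the outlying libraries all were above every Siglec F-high library. The rise was 0.39 ± 0.18 (edgeR adjusted p 0.215) in young mice with 24 libraries and 0.57 ± 0.09 (edgeR adjusted p 2.18e-04) with 22. In old mice it was 0.62 ± 0.18 (edgeR adjusted p 0.0495) with 24 and 0.43 ± 0.09 (edgeR adjusted p 0.00291) with 22 libraries. With 24 libraries the old-mouse call was lost without each of the 8 libraries of these groups in turn (edgeR adjusted p 0.0516 to 0.159).

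A list of other galectins also held Lgals3bp, which is not a galectin, and 6 of its genes were tested. With 22 libraries edgeR called 2 of the 6 higher and 1 lower in young Siglec F-low against F-high cells. In old mice it called 2 higher and 0 lower. With 24 libraries it called 0 in both, with 3 genes in young and 2 in old mice at an unadjusted p under 0.05. There DESeq2 called 0 higher and 1 lower in young and 0 in old mice, and limma voom 3 higher and 1 lower, and 2 higher and 1 lower. Over all genes tested edgeR called 12.0% and 11.6% with 22 libraries, and 4.99% and 4.30% with 24. With 22 libraries Lgals1, galectin-1, was higher by 0.52 ± 0.12 (edgeR adjusted p 0.00479) in young and 0.39 ± 0.12 (edgeR adjusted p 0.0318) in old mice. Lgals3bp, a secreted glycoprotein that binds galectin-3, was higher by 0.39 ± 0.10 (edgeR adjusted p 0.00751) and 0.30 ± 0.10 (edgeR adjusted p 0.0416). With 24 libraries Lgals1 had 0.06 ± 0.29 (edgeR adjusted p 0.938) in young and 0.66 ± 0.30 (edgeR adjusted p 0.273) in old mice, and Lgals3bp 0.70 ± 0.27 (edgeR adjusted p 0.143) and 0.44 ± 0.27 (edgeR adjusted p 0.492).

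Levels of different genes were compared per length, as CPM per kb of the union of annotated exons. In young naive Siglec F-high cells Cd9 was the highest member, at 1359 ± 167, followed by Tyrobp at 872 ± 125 and Lgals3 at 544 ± 77.9 (mean ± SD, n = 4). Spp1 was at 207 ± 51.4, Gpnmb at 65.5 ± 23.3, Cd63 at 25.6 ± 10.9 and Trem2 at 8.34 ± 2.20 CPM per kb. In young Siglec F-low cells Spp1 was at 2056 ± 608 and Cd9 at 1554 ± 167 CPM per kb, so Spp1 moved from rank 4 to rank 1 on this length. On the longest transcript instead, Spp1 was at 2249 ± 665 and Cd9 at 2586 ± 278, and Spp1 ranked 2. Trem2 was the lowest member per length in all 6 groups with either length. The receptor Trem2 was below its adaptor Tyrobp in young Siglec F-low cells, at 39.9 ± 3.16 against 1084 ± 94.0 CPM per kb. Without a length the means there were 197 and 723 CPM. The size of the gap per kb rests on annotated exon lengths of 4946 bases for Trem2 and 667 for Tyrobp. Which transcripts were present was not tested.

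**Figure D3:**
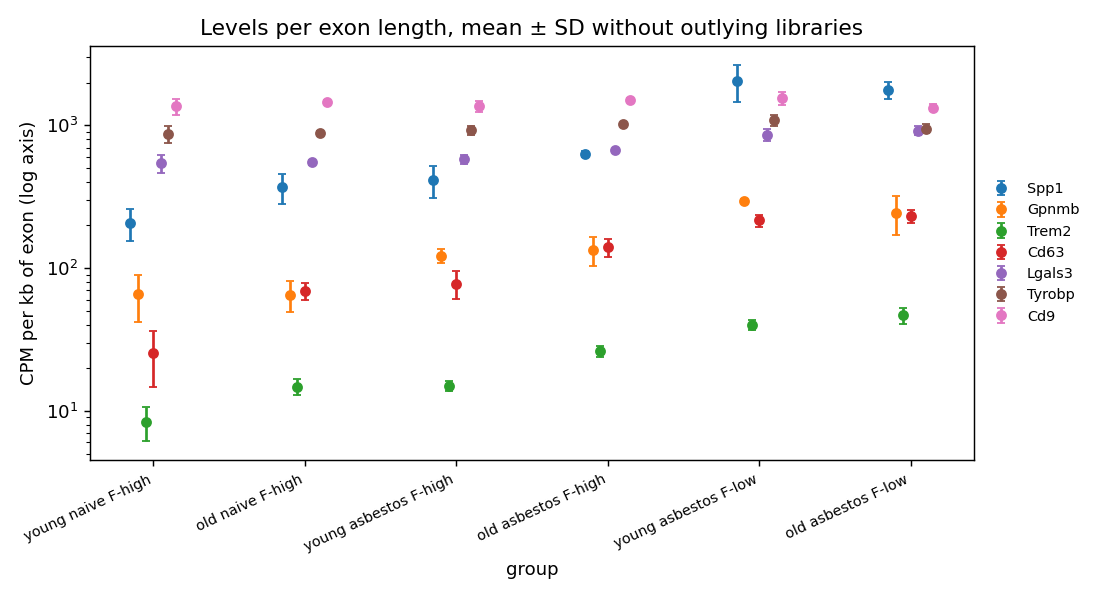
Level per kb of exon (log axis) of each member in the 6 groups along the x axis, as mean ± SD without the outlying libraries. Spp1 climbs from rank 4 in young naive Siglec F-high cells to rank 1 in both Siglec F-low sorts, and Trem2 is lowest throughout.

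Across the 22 libraries, the log2 CPM of Spp1, Gpnmb, Trem2, Cd63 and Lgals3 correlated with one another at Pearson coefficients of 0.87 to 0.98, and these values include the differences between the groups. Within groups, as deviations from the group means, the pattern was different. Tyrobp and Cd9 had a coefficient of 0.95, Tyrobp and Lgals3 0.88, and Cd9 and Lgals3 0.86. Trem2 and Cd63 had 0.82 and Gpnmb and Cd63 0.79, whereas Spp1 and Gpnmb had 0.07. Trem2 and its adaptor Tyrobp had 0.59. These are descriptions over 22 libraries that share scaling and depth, and no test was made of them.

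**Figure D4:**
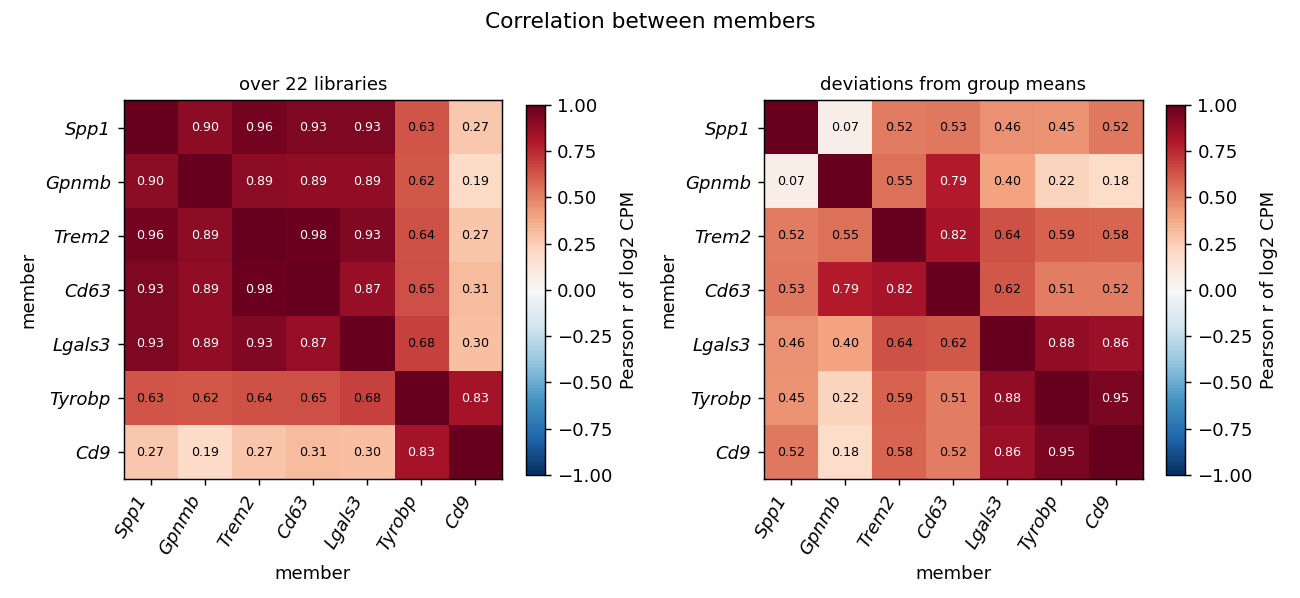
Pearson coefficients of log2 CPM between the members (both axes), over 22 libraries (left) and as deviations from group means (right), with red for positive values. Spp1 and Gpnmb go from 0.90 on the left to 0.07 on the right, and Tyrobp and Cd9 from 0.83 to 0.95.

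The genes most like each member were taken by the Pearson coefficient of log2 CPM over 22 libraries, among 8439 genes with a mean of at least 10 CPM. For Spp1 they were Rnf128 (0.966), the lysosomal proteases Lgmn (0.966), Ctsl (0.965) and Ctsz (0.964), and Pla2g7 (0.962). For Gpnmb they were Vwf (0.975), Fnip2 (0.973), Atp6v0d2 (0.972), a subunit of the vacuolar proton pump, Rasa3 and Wdr91. Vwf is also a marker of endothelium. For Trem2 they were Tspan4 (0.982), the saposin precursor gene Psap (0.982), Cd63 (0.979), Il11ra1, which has near-identical copies, and Rai14. For Cd63 they were Zranb3 (0.987), Plpp3, Epas1, Stra6l and the growth factor gene Igf1 (0.979). For Lgals3 they were Ctsz (0.985), Esd, the cathepsin inhibitor gene Cstb (0.975), Ctsl and Rilpl2. For Tyrobp the nearest was Rnaseh2b (0.920) and for Cd9 Hprt (0.946). With all 24 libraries 3 of the 5 nearest genes of Spp1 were again among its nearest 5, 2 of those of Trem2 and Cd63, 1 of those of Gpnmb, Cd9 and Lgals3, and 0 of those of Tyrobp. By Spearman's rho over the 22 libraries in place of Pearson, 4 of the 5 were again nearest for Tyrobp, 3 for Cd9, 2 for Gpnmb and Lgals3, 1 for Trem2, and 0 for Spp1 and Cd63. The genes named for every member therefore depend on the coefficient and on the set of libraries. These coefficients include the differences between the groups.

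Genes of lipid- and disease-associated macrophages that were called between the sorts were nearly all higher in Siglec F-low cells. Of 26 tested genes of this list, edgeR with 24 libraries called 11 higher and 0 lower in young and 10 higher and 1 lower in old Siglec F-low against F-high cells, and with 22 libraries 21 higher and 1 lower, and 14 higher and 2 lower. Over all genes tested 4.99% and 4.30% were called with 24 libraries, and 12.0% and 11.6% with 22. Csf1, the macrophage growth factor, was higher by 3.14 ± 0.30 (edgeR adjusted p 7.83e-07) in young and 2.41 ± 0.30 (edgeR adjusted p 3.10e-05) in old mice, and Apoe, the lipid carrier, by 1.55 ± 0.20 (edgeR adjusted p 2.41e-05) and 2.46 ± 0.20 (edgeR adjusted p 9.95e-08), with 24 libraries. Fabp5, a fatty acid carrier, was higher by 1.40 ± 0.23 (edgeR adjusted p 4.99e-04) and 1.30 ± 0.23 (edgeR adjusted p 0.00118). Lpl, lipoprotein lipase, was called in neither sort. In young mice it had -0.67 ± 0.29 (edgeR adjusted p 0.198) with 24 libraries and 0.00 ± 0.13 (edgeR adjusted p 0.998) with 22, and in old mice -0.11 ± 0.29 (edgeR adjusted p 0.948) and -0.23 ± 0.13 (edgeR adjusted p 0.280). Axl, a receptor for apoptotic cells, was lower with 22 libraries at -0.32 ± 0.07 (edgeR adjusted p 0.00542) in young and -0.39 ± 0.07 (edgeR adjusted p 0.00119) in old mice, and with 24 was not called, at -0.04 ± 0.22 (edgeR adjusted p 0.934) and -0.41 ± 0.23 (edgeR adjusted p 0.409). The median of the list with 22 libraries was 0.75 in young and 0.53 in old mice, beside -0.01 to 0.00 over all tested genes.

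With asbestos in Siglec F-high cells, edgeR with 24 libraries called 5 of the 26 genes higher and 0 lower in young mice and 5 higher and 0 lower in old mice. With 22 libraries it called 15 and 19 higher and 0 lower. Over all genes tested 1.90% and 0.780% were called with 24 libraries, and 5.06% and 4.12% with 22. Igf1 was higher by 2.10 ± 0.24 (edgeR adjusted p 3.70e-05) in young and 1.83 ± 0.24 (edgeR adjusted p 1.85e-04) in old mice with 24 libraries. Ctsk, the cathepsin K collagenase, was higher by 1.63 ± 0.26 (edgeR adjusted p 0.00112) in young mice, and Csf1 by 1.87 ± 0.32 (edgeR adjusted p 0.00386) in old mice. With age the counts differed between the sets of libraries. In naive cells edgeR called 1 gene higher and 0 lower with 24 libraries, namely Igf1 (1.04 ± 0.24, edgeR adjusted p 0.0174), and in asbestos Siglec F-high cells 1 higher and 1 lower. The latter were Csf1, higher in old mice by 1.36 ± 0.31 (edgeR adjusted p 0.0142), and Apoe, lower at -0.93 ± 0.20 (edgeR adjusted p 0.00777). With 22 libraries Apoe was lower there as well (-0.77 ± 0.19, edgeR adjusted p 0.0140), where Trem2 was higher. With 22 libraries edgeR called 3 of the 26 higher and 1 lower in naive cells, 9 higher and 1 lower in asbestos Siglec F-high cells, and 2 higher and 0 lower in Siglec F-low cells. The median of the list in asbestos Siglec F-high cells was then 0.31. Over all genes tested 2.03%, 4.76% and 1.29% were called in these age comparisons with 24 libraries, and 8.03%, 7.32% and 7.21% with 22.

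Markers of other cells were read with 22 libraries. Over all genes tested, 12.0% and 11.6% were then called in the sorts of young and old mice, and 7.21% with age in Siglec F-low cells. With asbestos in young and old Siglec F-high cells 5.06% and 4.12% were called. With 24 libraries these shares were 4.99%, 4.30%, 1.29%, 1.90% and 0.780%, and they apply to each marker list below. Of 13 markers of monocyte-derived and interstitial macrophages, edgeR called 7 higher in young and 9 higher in old Siglec F-low cells, 0 lower in either, and 9 higher in old than in young Siglec F-low cells. With 24 libraries these counts were 5, 7 and 1 higher and 0 lower. Their summed level was 865 to 991 and 799 to 1091 CPM in young and old naive, 909 to 1104 and 1065 to 1256 CPM in young and old asbestos Siglec F-high, and 1142 to 1339 and 1388 to 1625 CPM in young and old Siglec F-low libraries. C1qa, which encodes a complement subunit, had 3.61 to 4.80 CPM in old Siglec F-high and 48.5 to 64.9 CPM in old Siglec F-low libraries. The part of these cells in the sort differences of Spp1, Gpnmb, Trem2, Cd63 and Lgals3 was not tested.

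Of 8 B cell markers, edgeR called 6 lower with asbestos in young and 3 lower in old Siglec F-high cells, and 0 higher (background 5.06% and 4.12%). With 24 libraries (background 1.90% and 0.780%) it called 3 lower in young and 0 in old mice, where 6 had an unadjusted p under 0.05. Their summed level was 72.1 to 110.4 and 147 to 293 CPM in young and old naive, and 28.0 to 51.5 and 36.1 to 107 CPM in young and old asbestos Siglec F-high libraries. These sums were lower with asbestos at each age, and their part in the asbestos results of the members was not tested.

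Of 12 markers of resident alveolar macrophages, edgeR called 3 higher and 4 lower in young and 2 higher and 5 lower in old Siglec F-low cells. With 24 libraries it called 1 higher and 4 lower, and 1 higher and 3 lower. Over all genes tested 12.0% and 11.6% were called with 22 libraries, and 4.99% and 4.30% with 24. Siglecf, the gene of the sorting marker, is 1 of the 12, so these counts are not independent of the sort. Pparg, a defining transcription factor of these cells, had 197 to 248 CPM in young asbestos Siglec F-high and 185 to 254 CPM in young Siglec F-low libraries, and no gene of this list was at 0 in any of the 22 libraries. Pparg is 1 of the 12 markers and was named after its values were seen. Among the markers called between the sorts, more were lower than higher at each age. With asbestos edgeR called 5 of the 12 markers higher in young and 3 in old Siglec F-high cells, and 0 lower (background 5.06% and 4.12%). With 24 libraries it called 1 higher at each age (1.90% and 0.780%). Their summed level was 17668 to 22719 and 19400.0 to 22077 CPM in young and old naive, 26566 to 30184 and 38611 to 43220.5 CPM in young and old asbestos Siglec F-high, and 38775 to 50362 and 54825 to 69181 CPM in young and old Siglec F-low libraries. Most of this sum was Chil3, a chitinase-like protein, with 10562 to 14699 CPM in young naive Siglec F-high and 46995 to 60619.7 CPM in old Siglec F-low libraries. The sum was higher with asbestos and in Siglec F-low cells, and its part in the results of the members was not tested. Of 6 tested neutrophil markers, edgeR called 3 higher and 1 lower in young Siglec F-low cells with 22 libraries. With 24 it called 0 higher and 1 lower. In old Siglec F-low cells it called 1 higher with 22 and 0 with 24. In old against young asbestos Siglec F-high cells it called 3 higher with 22 libraries (background 7.32%) and 0 with 24 (4.76%). Ly6g, named after its values were seen, was at 0 in the Siglec F-high and young Siglec F-low libraries among the 22. In old Siglec F-low libraries no neutrophil marker was at 0 in all libraries. The part of neutrophils in the results of the members was not tested.

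The summed level of 8 fibroblast markers was 1253 to 1763 and 489 to 1543 CPM in young and old naive, 2234 to 2877 and 1778 to 1992 CPM in young and old asbestos Siglec F-high, and 3105 to 3735 and 4078 to 5733 CPM in young and old Siglec F-low libraries. Nearly all of it was Fn1, the fibronectin gene, with 2233 to 2876 CPM in young asbestos Siglec F-high and 3102 to 3730.0 CPM in young Siglec F-low libraries. Lum, picked from the list like Dcn after the values were seen, was at 0 in all libraries of these young groups. Dcn had 0 to 0.161 and 0 to 0.413 CPM in them. In old Siglec F-low libraries, where the sum was highest, no marker of the list was at 0 in all libraries. Of 5 tested fibroblast markers edgeR with 22 libraries called 0 in young and 1 higher in old Siglec F-low cells, and 1 higher with asbestos in old mice. The median log2 fold change of the 5 was then 1.35 in young and 0.43 in old Siglec F-low cells. With asbestos it was 0.71 in young and 2.07 in old mice. The 6 endothelial markers summed to 111 to 135 and 113 to 144 CPM in young and old naive, 170.4 to 185 and 149 to 210.0 CPM in young and old asbestos Siglec F-high, and 239 to 272 and 191 to 323 CPM in young and old Siglec F-low libraries. Most of this was Vwf, with 164 to 180.4 CPM in young asbestos Siglec F-high and 232 to 266 CPM in young Siglec F-low libraries, and 1 of 6 markers was called higher with asbestos and in Siglec F-low cells at each age. With 24 libraries edgeR called 0 markers of fibroblasts or endothelium in these comparisons, with at most 4 of a list at an unadjusted p under 0.05. Of 9 tested epithelial markers edgeR called 1 lower in young and 3 lower in old Siglec F-low cells, and 0 higher, and with 24 libraries 2 and 1 of 8 lower. Over all genes tested edgeR called 12.0% and 11.6% in the young and old sorts, and 5.06% and 4.12% with asbestos, with 22 libraries. With 24 these shares were 4.99%, 4.30%, 1.90% and 0.780%. The part of fibroblasts, endothelium and epithelium in the results of the members was not tested.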

How the data were processed

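RNA of sorted cells from 24 libraries was measured by poly(A) RNA-seq with the kit named in the labels' protocols, which does not mark strand. The authors deposited raw gene counts, made per the submitters' processing notes with bcl2fastq 2.19.1, FastQC, Trimmomatic 0.36, STAR 2.6.0 and HTSeq 0.11.2 on mm10. The annotation and the strand setting are not given in the sources used here. Each of the 24 count columns was assigned by its name, with 0 unmatched, and 0 pairs of libraries were identical. Of 43430 gene IDs, 42462 matched a symbol in the reference table of gene names. Positions and lengths are from GENCODE M21.

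The counts were tested with edgeR 4.0.16 (R 4.3.3) by its quasi-likelihood F test, with 1 term per group, TMM scaling and a filter by group (minimum count 10, minimum total 15), which left 13467 genes with 24 libraries and 13629 with 22. P-values were adjusted by Benjamini-Hochberg over all genes tested, and the threshold was 0.05. Standard errors are the log2 fold change over the square root of F, and 95% intervals are normal. Log2 CPM used a prior count of 2. Alternatives were DESeq2 1.42.0, limma 3.58.1 voom with sample weights, DESeq2 size factors, no filter, fewer libraries and a replicate block. The edgeR steps with 24 libraries were tried on simulated counts for young Siglec F-low against F-high cells alone. The other comparisons, the fit with 22 libraries and the alternatives were not.

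Same-numbered libraries were checked for shared deviations from the group means. With 24 libraries no pair of groups had all coefficients above 0.1. With 22 the old asbestos sorts did (0.150 to 0.205 over 3 numbers), and there the block changed no call. The labels give no source for the pairing.

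The members and gene lists were chosen with earlier results of these data known. Of each list, the called genes were named, at most the 2 of smallest p in each direction in each comparison, besides Hcst, Syk, Cd44, Itgav, Mitf, Fabp5, Lpl, Cd81 and Lgals1. The 5 genes most like each member were also named. Siglecf, C1qa, Pparg, Ly6g, Chil3, Fn1, Lum and Dcn were named outside this rule, from the marker lists, after their values were seen.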

Additional observations from a re-analysis of the deposited data

Results flagged for a closer look

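Within groups of 4, 42 sets of a member's values were examined for a library far from the other 3, by the gap to its nearest neighbour over the range, against Dixon's 95% critical value. Chance gives about 1 in 20, and 4 were found. Gpnmb had 654 CPM in young naive Siglec F-high replicate 1, where the other 3 libraries had 348 to 355 CPM. The other 3 were all in old asbestos Siglec F-high replicate 3, the library with 35.6% of its counts on Gm42418. It had 304 CPM of Tyrobp against 676 to 699.7 in the others, 1644 CPM of Cd9 against 3034 to 3157, and 662 CPM of Lgals3 against 1240 to 1273.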

How the results depend on the processing

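The number of members called changed with the outlying libraries. For old against young asbestos Siglec F-high it was 0 with 24 libraries and 2 with 22, 3 with limma voom and 3 with the replicate block and 22 libraries. For asbestos in old mice it was 0, and 4 under each of these 3. For Siglec F-low against F-high in old mice it was 3, and 5 under these 3 and under DESeq2. On the libraries of the groups compared alone it was 0 in place of 3 for asbestos in young mice and 1 in place of 4 for the sorts in young mice. The cause was not tested. The replicate block with 24 libraries left every count of members as it was. It called Gpnmb between the old sorts (1.10, edgeR adjusted p 0.0202) and lost Lgals3 there (0.63, edgeR adjusted p 0.0677). With 22 libraries it also called Tyrobp between the young sorts (0.26, edgeR adjusted p 0.0214) and Spp1 between old and young asbestos Siglec F-high (0.62, edgeR adjusted p 0.0358).

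Leaving out 1 library of 24 gave 1 to 2 members called for age in naive, 0 to 1 in asbestos Siglec F-high and 0 to 0 in Siglec F-low cells, 1 to 3 and 0 to 1 for asbestos in young and old mice, 4 to 5 and 2 to 3 for the sorts in young and old mice, and 0 for both interactions. Spp1 in old against young asbestos Siglec F-high, not called by edgeR with 24 libraries, then ran from -0.11 to 0.47, with values below 0 of -0.11 without young replicate 2, -0.11 without young replicate 4 and -0.02 without old replicate 1. Of 63 combinations of a member and a comparison, 38 were called under no setting, and 19 of these changed sign in at least 1 of 720 alternatives. Of 23 called with 22 libraries, 16 held without each further library in turn, a check added after seeing the data, and 7 did not.

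The counts of genes called over all genes moved as well. For age they were 273 in naive, 641 in asbestos Siglec F-high and 174 in Siglec F-low cells with 24 libraries, and 1094, 997 and 983 with 22. For asbestos they were 256 and 105 in young and old mice, and 690 and 562 with 22. For the sorts they were 672 and 579, and 1638 and 1578 with 22. limma voom called 1870, 1896, 1285, 1895, 687, 2309 and 2089 in that order, and DESeq2 474, 1432, 358, 594, 243, 1133 and 924. Only the groups compared gave 685, 17, 798, 10, 51 and 181 in the first 6. The replicate block with 22 libraries gave 1476, 1347, 1240, 889, 725, 2440 and 1954. For the interaction of age with asbestos the count was 0, against 2 with 22 libraries, 2 with the block besides and 3 with limma voom. For age with sort it was 0, against 2, 14, 15 and, with DESeq2, 6.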
